A study of Mus musculus with 24 samples.

Results

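Genes that mark macrophages were examined in RNA sequencing of the uninjured mouse carotid artery. The 10 pan-macrophage marker genes are Cd68, Adgre1, Csf1r, Itgam, Fcgr1, C1qa, C1qb, C1qc, Mertk and Trem2, out of 55421 genes listed for each library. They were chosen by name, as the rows whose Ensembl identifier carries a listed symbol in GENCODE mouse release M21, and no contrast or threshold entered that choice. The set was nevertheless proposed with earlier results of these data in view, in which a macrophage list stood apart in 1 vehicle library. The p-values given here are therefore those of the fit over all genes, and no test was made of the set as a whole.

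The 24 libraries were made from C57BL/6 mice, 1 animal per library and 6 per group, and all 4 groups were analysed. Vehicle mice (titles OVX) were ovariectomized and carry a placebo label, E2 mice received 17β-estradiol, E4 mice received estetrol, and TAM mice received tamoxifen, a selective estrogen receptor modulator. All labels give an age of 9 weeks, and the design text gives 3 weeks of treatment, whereas the study's methods describe younger mice and a shorter treatment with subcutaneous pellets after ovariectomy. The E2 and E4 pellets differed in dose, the E4 dose having been chosen by the study to give an estrogenic action similar to that of E2 as judged by the uterus, and a difference between both groups compares these dosings and not equal amounts of compound. The treatment label of all 6 E4 libraries reads placebo, and their titles alone place them in the E4 group. The study's text does not describe the tamoxifen libraries, and whether these mice were ovariectomized is not given in the sources used here.

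Macrophages are resident phagocytes of the arterial wall, most of them in the adventitia, and they depend on signalling through the receptor encoded by Csf1r. They engulf debris and dying cells, take up immune complexes through Fc receptors and produce C1q, the recognition part of the classical complement pathway. None of these genes is fully exclusive to the macrophage: Itgam and Fcgr1 are also used by monocytes and neutrophils, and Mertk is known in other tissues. Because whole arteries were sequenced, fewer cells of a type and less RNA per cell cannot be told apart.

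Library totals ranged from 24647246 to 64221401 counts (median 45156106), and expression is given as CPM, the count over the library size after TMM scaling, expressed per 1000000. Vehicle library C5 and TAM library C35 stood apart from the rest. The mean log2 CPM of 10 sympathetic neuron markers was 1.29 in C5 and 3.86 in C35, against 6.80 to 8.71 in the other libraries. In E2 library C9 the T cell markers averaged 5.35, against at most 1.79 in the other E2 libraries. The tests of the 10 genes and of all gene lists, but not the ratios between genes, were also computed without C5 and C35. Animal numbers fell into 2 series within every group, up to 20 and from 24 upwards, and whether these are batches is not given in the sources used here. Smooth muscle markers of the labelled tissue averaged 7.78 to 9.34 log2 CPM and endothelial markers 5.88 to 6.87.

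All 10 genes were measured in every library, with 75 to 8373 counts per gene and library, and all 10 passed the filter on low counts in both fits. Set per kilobase of merged exon, which allows levels to be compared between genes, the C1q chains were the most abundant in vehicle arteries. Mean levels per kilobase were 75.1 CPM for C1qa, 60.1 for C1qb and 30.3 for C1qc. Csf1r followed at 12.1, Mertk at 8.14, Cd68 at 7.76 and Adgre1 at 6.67. Itgam at 2.05, Fcgr1 at 1.58 and Trem2 at 0.711 were the least abundant. In this order the vehicle ranges of C1qa (63.4 to 114 CPM per kb) and C1qb (50.5 to 88.9) overlapped, as did those of each neighbouring pair from Csf1r through Mertk and Cd68 to Adgre1, whereas those of C1qb and C1qc (22.5 to 48.9) did not. In E2 arteries Cd68 (14.5 CPM per kb) and Adgre1 (12.1) stood above Mertk (7.52), and the lowest E2 values of both (11.8 and 9.92 CPM per kb) exceeded the highest of Mertk (9.11).

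**Figure D1:**
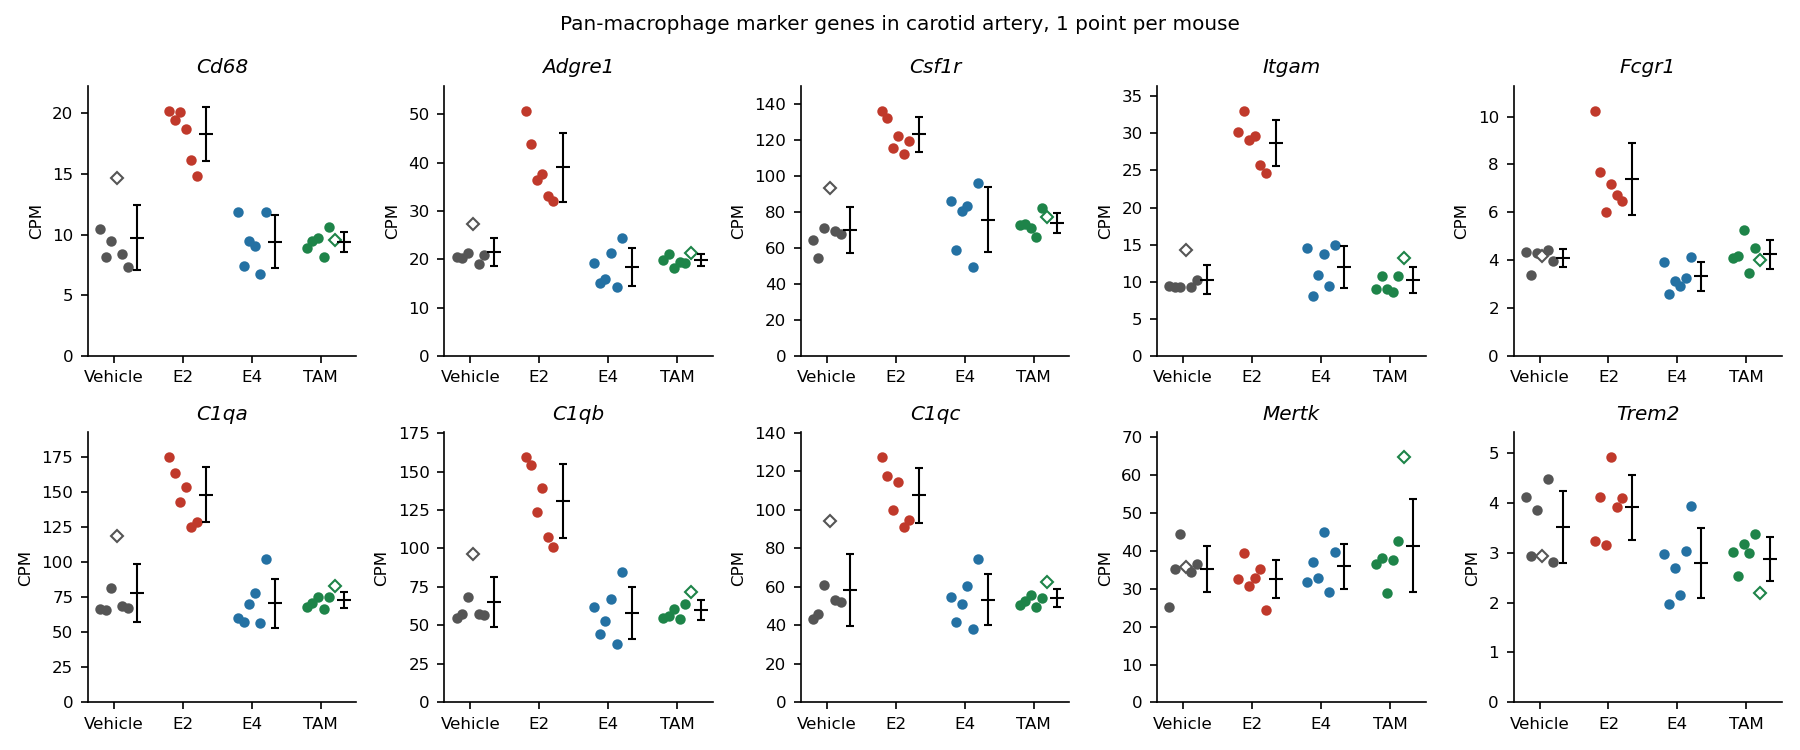
Expression (CPM, linear axis from 0) of the 10 marker genes in each mouse, by group. Filled circles are single libraries, open diamonds are vehicle C5 and TAM C35, and the bar beside each group is the mean with its SD (n = 6). In 8 panels the E2 mice lie above the other groups, with C1qc overlapping the vehicle group through C5, and in the panels of Mertk and Trem2 the groups overlap.

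The comparison of E2 with vehicle asked which genes of the artery respond to chronic estradiol. Of the 10 marker genes, 8 rose with E2 at an adjusted p-value under 0.05 and 0 fell. Over all 24669 genes tested in the fit of vehicle, E2 and E4 libraries, 2.65% rose and 1.23% fell at this threshold (quasi-likelihood test of edgeR, Benjamini-Hochberg adjusted). The median log2 fold change was 0.87 over the 10 genes and 0.0056 over all genes. With the study's second threshold added, an absolute log2 fold change over 1, only Itgam among the 10 was called, against 0.9% of all tested genes. In 7 of the 10 genes every E2 mouse exceeded every vehicle mouse, as was the case in 2.02% of all tested genes.

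Itgam encodes the integrin αM chain (CD11b), which pairs with the β2 chain to form complement receptor 3. It lies on chromosome 7 (GRCm38, 128062640 to 128118491, plus strand). The lowest, median and highest values were 9.25, 9.40 and 14.3 CPM in vehicle, 24.6, 29.3 and 33.1 CPM in E2, 8.11, 12.4 and 15.0 CPM in E4 and 8.64, 9.89 and 13.2 CPM in TAM arteries. The E2 group lay wholly above the other groups, which overlapped each other. The difference between E2 and vehicle was 2.79-fold (95% interval 2.25 to 3.46, adjusted p = 3.70e-06). Exons of Itgam overlap those of Gm49368 on the same strand, and reads of these genes could have been divided between them.

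Csf1r encodes the receptor for colony-stimulating factor 1 and interleukin 34, on which most tissue macrophages depend for survival. Its values spanned 54.5 to 93.1 CPM in vehicle arteries (median 68.5), 112 to 136 CPM in E2 (median 121), 49.3 to 96.2 CPM in E4 (median 81.9) and 65.9 to 82.0 CPM in TAM (median 73.0). No E2 mouse reached down to the range of another group. Csf1r rose 1.76-fold with E2 (1.42 to 2.17, adjusted p = 0.00206). The gene lies on chromosome 18 (61100598 to 61132149, plus strand), and its exons overlap those of Hmgxb3 on the opposite strand.

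Cd68 encodes a glycoprotein of late endosomes and lysosomes and lies on chromosome 11 (69664213 to 69666153, minus strand). Its lowest, median and highest values were 7.33, 8.94 and 14.7 CPM in vehicle and 14.9, 19.1 and 20.2 CPM in E2 arteries, a 1.87-fold rise (1.47 to 2.38, adjusted p = 0.00281). The groups were separated by a small gap, since the highest vehicle value belonged to C5 and the next was 10.5 CPM. Adgre1, which encodes the adhesion receptor F4/80, ran from 19.1 to 27.3 CPM in vehicle (median 20.7) and from 32.1 to 50.8 CPM in E2 (median 37.1). Adgre1 rose 1.81-fold (1.48 to 2.21, adjusted p = 9.59e-04) and lies on chromosome 17 (57358691 to 57483527, plus strand).

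Fcgr1 encodes the high-affinity IgG receptor CD64 and lies on chromosome 3 (96282909 to 96293969, minus strand). It was scarce, with 3.40, 4.23 and 4.43 CPM as the lowest, median and highest values in vehicle arteries and 6.03, 6.95 and 10.3 CPM in E2 arteries. All E2 mice were above all vehicle mice, and the rise was 1.80-fold (1.48 to 2.19, adjusted p = 7.67e-04). Vehicle library C5, high for most of the other genes, was at 4.15 CPM here and thus within the range of its group.

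C1qa, C1qb and C1qc encode the A, B and C chains that assemble into C1q. They lie side by side on the minus strand of chromosome 4, with C1qb at 136880129 to 136886187, C1qc at 136889804 to 136893065 and C1qa at 136895917 to 136898803. C1qa spanned 66.0 to 119 CPM in vehicle (median 68.1) and 125 to 175 CPM in E2 (median 148), a 1.89-fold rise (1.49 to 2.40, adjusted p = 0.00225). C1qb spanned 55.0 to 96.7 CPM in vehicle (median 57.4) and 101 to 159 CPM in E2 (median 131), a 2.00-fold rise (1.53 to 2.62, adjusted p = 0.00323). C1qc spanned 43.4 to 94.4 CPM in vehicle (median 52.8) and 91.2 to 128 CPM in E2 (median 107), a 1.84-fold rise (1.41 to 2.39, adjusted p = 0.00761). For each chain the highest vehicle value was that of C5, and for C1qc it overlapped the E2 range, the next vehicle value being 61.2 CPM. The ratio of C1qa to C1qb within a library was 1.19 ± 0.0248 (SD, n = 6) in vehicle, 1.14 ± 0.0747 in E2, 1.24 ± 0.177 in E4 and 1.22 ± 0.0404 in TAM arteries.

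Mertk and Trem2 did not pass the test. Mertk encodes a receptor tyrosine kinase that recognises dying cells through bridging ligands, and lies on chromosome 2 (128698956 to 128802894, plus strand). Its lowest, median and highest values were 25.3, 35.5 and 44.4 CPM in vehicle and 24.5, 32.8 and 39.5 CPM in E2 arteries. The fold change was 0.924 (0.764 to 1.12, adjusted p = 0.781). Trem2 encodes a lipid-sensing receptor of macrophages and lies on chromosome 17 (48346401 to 48354147, plus strand). It was at 2.80, 3.39 and 4.47 CPM in vehicle and 3.16, 4.01 and 4.92 CPM in E2 arteries, a fold change of 1.11 (0.866 to 1.42, adjusted p = 0.782). For both genes the groups overlapped almost completely, and the intervals end below the fold changes of the other 8 genes.

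**Figure D2:**
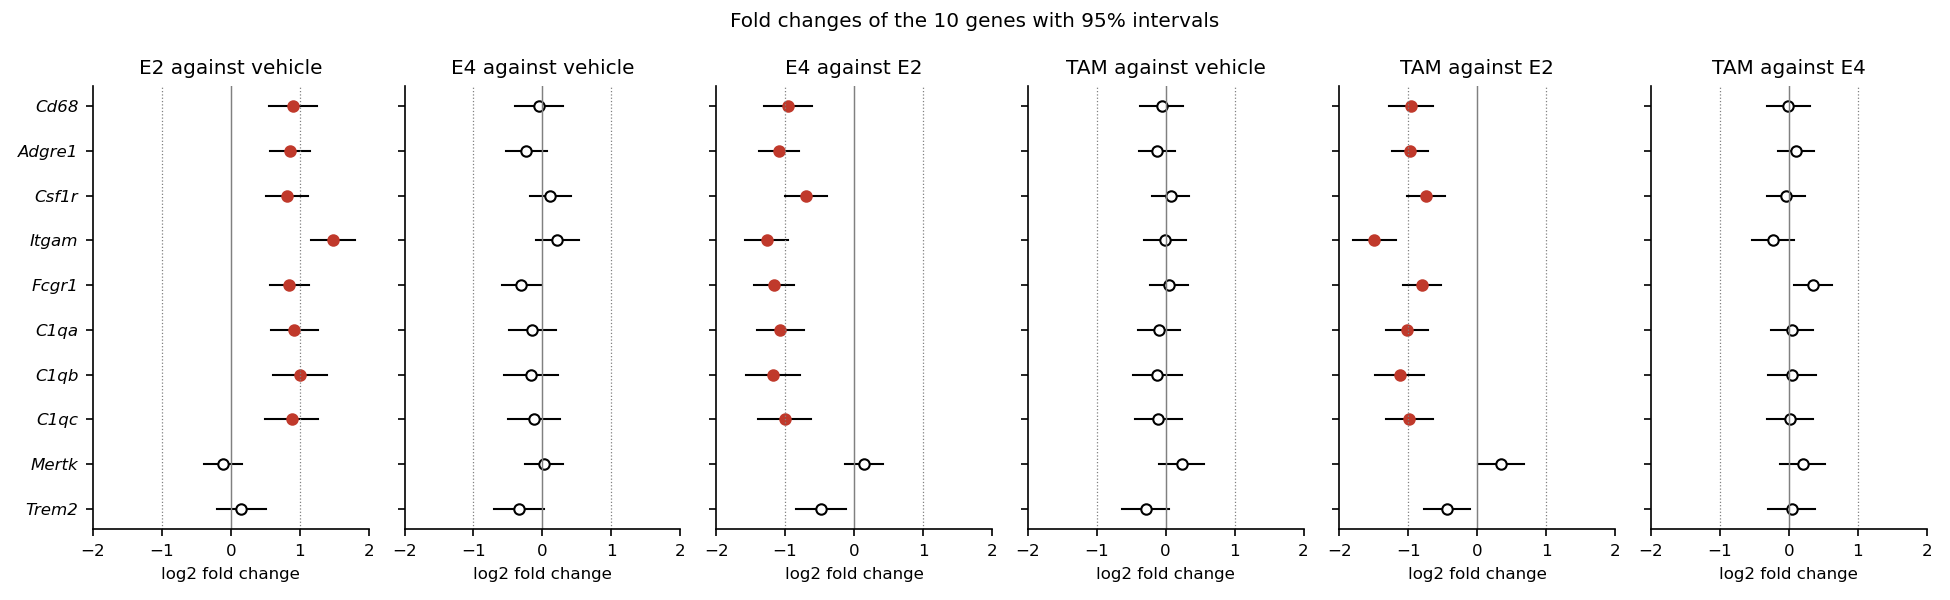
Log2 fold changes of the 10 genes in 6 comparisons (points) with 95% intervals (lines). Filled points have an adjusted p-value under 0.05, and dotted lines mark a log2 fold change of 1 in either direction. In the 3 comparisons that involve E2, 8 genes are filled, and in the others none is.

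Cd68 was also used as the reference within each library. The ratios of Adgre1, Csf1r, Fcgr1 and C1qa to Cd68 overlapped between E2 and vehicle arteries, with means of 2.13 and 2.28 for Adgre1, 6.79 and 7.35 for Csf1r, 0.406 and 0.439 for Fcgr1 and 8.11 and 8.08 for C1qa. The ratio of Itgam to Cd68 was 1.45 to 1.70 in E2 and 0.905 to 1.39 in vehicle arteries, and these ranges did not overlap. It was 1.09 to 1.52 in E4 arteries, overlapping both E2 and vehicle, and 0.925 to 1.38 in TAM arteries. The ratio of Mertk to Cd68 was 1.53 to 2.18 in E2 and 2.42 to 5.0 in vehicle arteries, again without overlap, and it was 2.67 to 5.01 in E4 and 2.97 to 6.80 in TAM arteries. Trem2 over Cd68 averaged 0.218 ± 0.0510 in E2 and 0.379 ± 0.107 in vehicle arteries, with overlapping ranges. All of these ratios share the level of Cd68 and are given as a description.

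**Figure D3:**
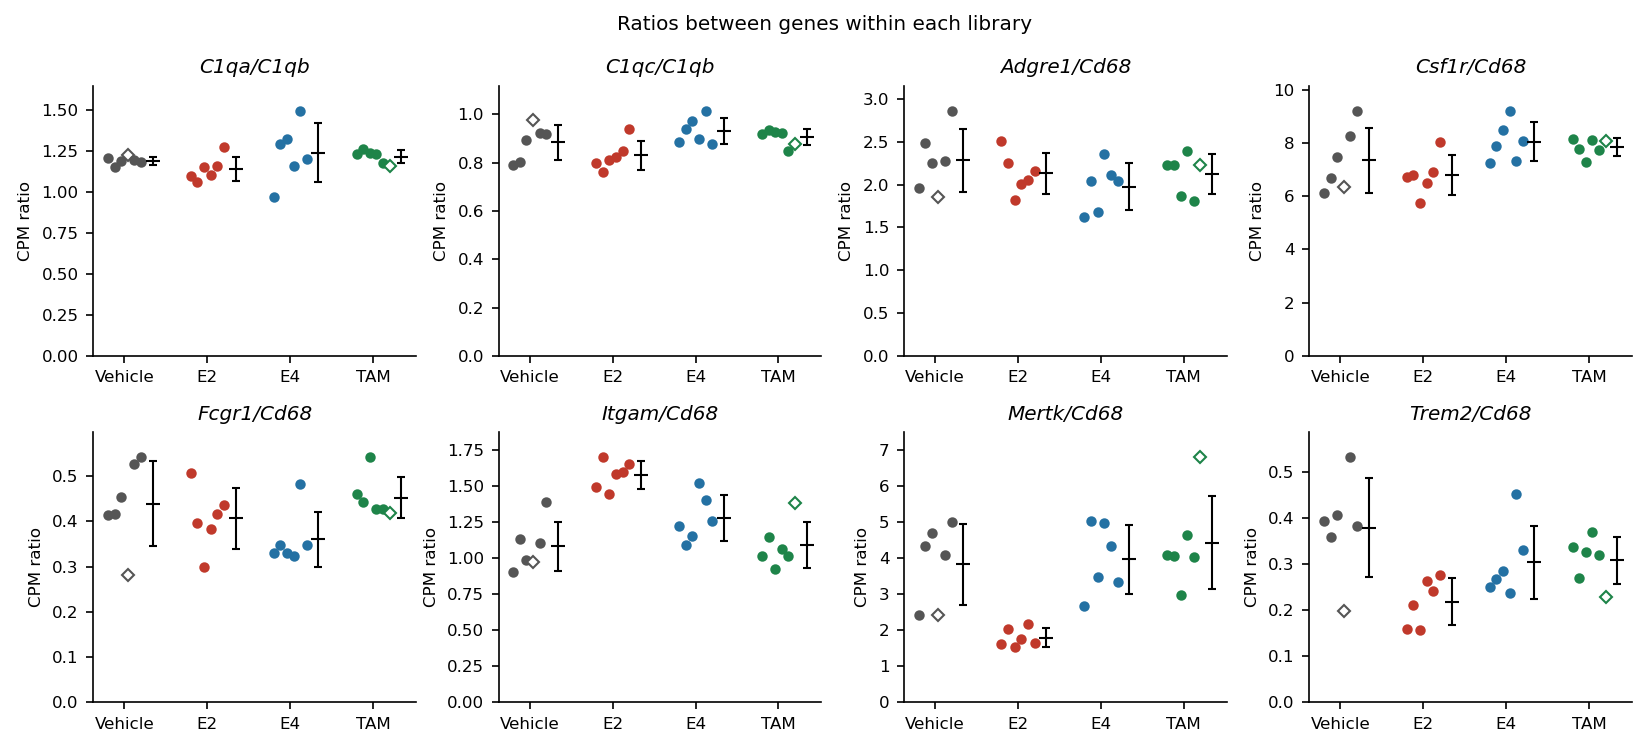
Ratios of CPM between genes within each library (linear axis from 0), by group, with the mean and SD (n = 6) beside the points. Open diamonds are vehicle C5 and TAM C35. On average Itgam over Cd68 is highest in E2 mice, Mertk over Cd68 is lowest in them without overlap, and the ratios between C1q chains stay between 0.761 and 1.5 in all libraries.

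Upstream sequences of the marker genes were examined because most of the genes moved together. The RefSeq table (GRCm38.p6) matched 7 of the 10 genes, namely Cd68, Itgam, Fcgr1, C1qb, C1qc, Mertk and Trem2, and the 250 bases before the annotated start were searched on both strands. GAGGAA, the core bound by PU.1, the myeloid factor encoded by Spi1, was found in 6 of the 7 and in 23.3% of 32851 promoter windows of that length. Mertk was the exception. A full estrogen response element, GGTCA followed after 3 bases by TGACC, was in 0 of the 7 and in 0.0639% of all windows. GGTCA alone, one arm of the full element, was in 4 of the 7 and in 35.2% of all windows. A match is a description of letters in the window and not evidence of binding.

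The windows of Itgam (chr7:128062390-128062639, plus strand), Fcgr1 (chr3:96293970-96294219, minus strand) and C1qb (chr4:136886201-136886450, minus strand) are shown as genes that rose with E2, and those of Trem2 (chr17:48346151-48346400, plus strand) and Mertk (chr2:128698665-128698914, plus strand) as genes that did not pass the test. Each is written in the direction of the gene, and capitals mark GAGGAA or its reverse complement TTCCTC.
Itgam: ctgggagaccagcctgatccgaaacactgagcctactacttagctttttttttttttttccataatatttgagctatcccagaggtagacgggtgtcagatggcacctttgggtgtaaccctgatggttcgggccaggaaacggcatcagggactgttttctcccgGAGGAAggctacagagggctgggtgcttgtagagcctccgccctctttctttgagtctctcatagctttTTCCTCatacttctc
Fcgr1: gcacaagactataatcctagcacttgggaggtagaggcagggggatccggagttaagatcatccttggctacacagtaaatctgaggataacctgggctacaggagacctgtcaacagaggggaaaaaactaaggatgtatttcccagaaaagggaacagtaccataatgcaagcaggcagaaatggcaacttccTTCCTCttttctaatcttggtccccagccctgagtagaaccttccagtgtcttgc
C1qb: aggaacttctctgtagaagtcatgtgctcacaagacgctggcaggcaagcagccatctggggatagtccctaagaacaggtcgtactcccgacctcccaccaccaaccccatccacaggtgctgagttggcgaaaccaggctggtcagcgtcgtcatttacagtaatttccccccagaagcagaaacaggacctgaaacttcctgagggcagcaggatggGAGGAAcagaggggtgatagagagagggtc
Trem2: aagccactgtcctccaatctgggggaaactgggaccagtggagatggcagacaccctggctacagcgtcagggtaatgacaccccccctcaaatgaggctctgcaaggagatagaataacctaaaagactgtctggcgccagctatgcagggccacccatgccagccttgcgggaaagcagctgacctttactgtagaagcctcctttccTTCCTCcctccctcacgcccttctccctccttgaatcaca
Mertk: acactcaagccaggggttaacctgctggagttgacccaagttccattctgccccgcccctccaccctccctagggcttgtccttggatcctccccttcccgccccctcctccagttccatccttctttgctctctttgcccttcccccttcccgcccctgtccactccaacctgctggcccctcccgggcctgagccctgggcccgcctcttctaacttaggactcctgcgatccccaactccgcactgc
The first matching base lay 84 and 15 bases before the start of Itgam, 55 before Fcgr1, 30 before C1qb and 40 before Trem2. The motif was thus in the window of Trem2, which did not pass the test with E2, as well as in those of genes that rose.

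E4 was compared with vehicle to ask whether the artery responds to estetrol. None of the 10 genes passed the test, in edgeR or in DESeq2, whereas 9.65% of the 24669 genes rose and 12% fell at an adjusted p-value under 0.05. Log2 fold changes of the 10 genes ran from -0.34 (Trem2) to 0.22 (Itgam), with a median of -0.14, and adjusted p-values ranged from 0.114 to 0.904. At an unadjusted p-value under 0.05 there was 1 gene, Fcgr1, at 2.58 to 4.14 CPM in E4 arteries and a fold change of 0.809 (0.663 to 0.988, adjusted p = 0.114). The intervals of the fold changes were 0.878 to 1.33 for Csf1r, 0.938 to 1.44 for Itgam and 0.712 to 1.15 for C1qa. The E4 group was itself spread out, with E4 library C39 highest and C38 lowest for most genes, as for C1qb (84.8 and 37.7 CPM) and Csf1r (96.2 and 49.3 CPM). The E4 library C38 had the lowest total of the series.

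E4 against E2 contrasted both estrogens directly. In E4 arteries 8 of the 10 genes were lower at an adjusted p-value under 0.05 and 0 were higher, where 7.95% of all tested genes were lower and 2.95% higher. With the fold threshold 6 were called, Itgam, C1qb, Fcgr1, Adgre1, C1qa and C1qc, against 2.07% of all tested genes called lower. In all 8 every E4 mouse was below every E2 mouse, as held for 4.18% of all tested genes. The fold change was 0.417 (0.336 to 0.517) for Itgam with an adjusted p of 1.86e-04, 0.445 (0.339 to 0.584) for C1qb with 0.00128 and 0.616 (0.50 to 0.76) for Csf1r with 0.00648. Trem2 was at 1.98 to 3.94 CPM in E4 and 3.16 to 4.92 CPM in E2 arteries, with a fold change of 0.715 (0.557 to 0.918, adjusted p = 0.0733). Mertk had a fold change of 1.10 (0.912 to 1.33, adjusted p = 0.469). This comparison shares its E2 libraries with the one above, so both sets of values are not independent.

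The tamoxifen group entered a separate fit, which held 25056 genes and the 24 libraries of all groups. Against vehicle, none of the 10 genes passed the test in edgeR or in DESeq2, and none (0 of 10) had an unadjusted p-value under 0.05, with 1.3% of all tested genes higher and 0.93% lower at an adjusted p-value under 0.05. Log2 fold changes of the 10 genes ran from -0.29 (Trem2, adjusted p = 0.318) to 0.23 (Mertk, adjusted p = 0.417), with a median of -0.077. The intervals of the other 8 genes were within 0.722-fold and 1.27-fold. The TAM group had the smallest SD of the 4 groups for 8 of the genes, all but Fcgr1 and Mertk, with C1qa at 66.6 to 82.7 CPM and Adgre1 at 18.1 to 21.2 CPM. Mertk ran from 28.9 to 64.8 CPM in this group, the highest value being that of C35 and the next 42.8 CPM.

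Against E2, 8 of the 10 genes were lower in TAM arteries at an adjusted p-value under 0.05, and 4.48% of all tested genes were lower and 1.92% higher. With the fold threshold 3 were called, Itgam (0.357-fold, 0.289 to 0.440, adjusted p = 5.07e-07), C1qb (0.460-fold, 0.360 to 0.588, adjusted p = 1.88e-04) and C1qa (0.494-fold, 0.398 to 0.612, adjusted p = 1.18e-04), against 1.39% of all tested genes called lower. For all 8 the groups did not overlap, which held for 3.12% of all tested genes. Between TAM and E4 arteries none of the 10 passed the test in edgeR or in DESeq2, 1 had an unadjusted p-value under 0.05, and 0.172% of all tested genes were higher and 0.172% lower. That gene was Fcgr1 (unadjusted p = 0.0133, adjusted p = 0.376), with a fold change of 1.28 (1.06 to 1.55). The 8 genes that rose with E2 against vehicle were also those that passed against E4 and against TAM, and in these fits no test of the 10 genes between vehicle, E4 and TAM passed. With the mean of the sympathetic neuron markers as a covariate, Itgam was higher in E4 than in vehicle arteries (log2 fold change 0.41, adjusted p = 0.0400).

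Without vehicle C5 and TAM C35 the number that rose with E2 was 8, and the number also past the fold threshold went from 1 to 5. Within the first number series (4 vehicle and 3 E2 mice) 2 genes passed, Itgam and Adgre1, and within the second (2 vehicle and 3 E2 mice) 2 passed, Itgam and Cd68. The median log2 fold change was 0.93 in the first and 0.84 in the second, against 0.87 in all libraries, while 191 and 237 genes in all passed at an adjusted p-value under 0.05. For E4 against E2 the count was 7 in the first series and 0 in the second, where 0 genes of the whole table passed, with medians of -1.27 and -0.77. In the first series 1126 genes of the whole table passed for E4 against E2. For TAM against E2 the count was 8 and 1, with medians of -1.11 and -0.78, where 1150 and 115 genes of the whole table passed.

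Csf1r responds to ligands made by other cells, and its transcription depends on myeloid factors. Of 10 genes for these ligands and factors, 2 rose with E2 and 0 fell: Spi1, which encodes PU.1, from a mean of 5.33 to 9.09 CPM (log2 fold change 0.77, adjusted p = 0.0168), and Maf, from 42.0 to 62.1 CPM (0.57, adjusted p = 0.0345). Maf also rose with E4 (log2 fold change 0.42, adjusted p = 0.0488), the only gene of this list that did, and without C5 and C35 its adjusted p-value was 0.0688. Csf1, the main ligand, averaged 66.1 ± 10.8 CPM (SD, n = 6) in vehicle and 83.5 ± 6.96 CPM in E2 arteries and did not pass the test (adjusted p = 0.146). Il34, the other ligand, averaged 14.3 ± 2.55 and 11.5 ± 2.10 CPM (adjusted p = 0.247), but was higher in E4 than in E2 arteries (log2 fold change 0.46, adjusted p = 0.0376).

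Fcgr1 and Itgam act with other receptor chains, kinases and ligands. Of 7 genes of Fc receptor function 4 rose with E2 and 0 fell: Fcgr2b, the inhibitory receptor, from 28.9 to 52.6 CPM (log2 fold change 0.86, adjusted p = 2.80e-04), Fcgr3 from 25.4 to 45.9 CPM (0.85, adjusted p = 0.00345), Fcer1g, the shared signalling chain, from 10.7 to 18.6 CPM (0.79, adjusted p = 0.00718), and the kinase gene Fgr (0.84, adjusted p = 0.0378, or 0.0532 without C5 and C35). Among 6 tested genes around integrin αM, 3 rose with E2. Itgb2, which encodes its β2 partner, went from 10.4 ± 1.97 to 20.3 ± 4.78 CPM (0.97, adjusted p = 0.00285), and Fermt3 (0.69) and the ligand gene Icam1 (0.57) had adjusted p-values of 0.0214 and 0.0160. The ratio of Itgam to Itgb2 was 0.756 to 1.08 in vehicle and 1.11 to 1.71 in E2 arteries, without overlap. In E4 arteries it was 1.13 to 1.73, also wholly above vehicle and overlapping E2, and in TAM arteries 0.883 to 1.06.

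C1q starts a cascade of other complement proteins. The proteases C1ra and C1s1, which associate with C1q, did not pass the test with E2 (log2 fold changes 0.072 and 0.15, adjusted p = 0.894 and 0.668). C3, the central complement component, rose from 532 ± 144 to 1242 ± 125 CPM with E2 (log2 fold change 1.22, adjusted p = 3.16e-04) and C4b from 147 ± 27.3 to 287 ± 28.2 CPM (0.96, adjusted p = 2.32e-04). Both also rose with E4, C3 to 939 ± 273 CPM (0.82, adjusted p = 0.00575) and C4b to 214 ± 45.6 CPM (0.54, adjusted p = 0.0118), whereas none of the C1q chains did. C2 was lower with E4 (-0.44, adjusted p = 0.0112). In all, 2 of 6 genes of this list rose with E2, and 2 rose and 1 fell with E4.

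Gas6, which encodes the ligand that bridges dying cells to MERTK, had the largest rise with E2 among the 62 tested genes listed as partners of the markers or as pan-leukocyte genes. It was at 147, 168 and 216 CPM (lowest, median and highest) in vehicle, 580, 621 and 723 CPM in E2, 291, 365 and 594 CPM in E4 and 227, 244 and 363 CPM in TAM arteries. The E2, E4 and TAM groups each lay wholly above vehicle, and E2 reached above E4 in all but 1 E4 library. Gas6 rose with E2 (log2 fold change 1.84, adjusted p = 3.12e-07), with E4 (1.17, adjusted p = 2.73e-04) and with TAM (0.58, adjusted p = 0.0425, or 0.0691 without C5 and C35), while Mertk did not pass in any of them. The ratio of Gas6 to Mertk averaged 5.05 ± 0.700 in vehicle, 19.6 ± 2.51 in E2, 11.1 ± 2.55 in E4 and 6.49 ± 0.811 in TAM arteries. The other ligand gene, Pros1 (adjusted p = 0.790), and the related receptor gene Axl (log2 fold change 0.40, adjusted p = 0.0937) did not pass with E2, so 1 of 7 genes in this list rose. Without C5 and C35 the count was 3, and Axl passed (log2 fold change 0.49, adjusted p = 0.0150).

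Around Trem2, 1 of 8 genes rose with E2, the kinase gene Syk (log2 fold change 0.63, adjusted p = 0.0374). Tyrobp, which encodes the adaptor DAP12 through which TREM2 signals, averaged 17.9 ± 3.16 CPM in vehicle and 27.4 ± 5.18 CPM in E2 arteries (0.62, adjusted p = 0.0507). With E4 it was lower than in vehicle arteries, at 12.3 ± 3.44 CPM (-0.53, adjusted p = 0.0353). Without C5 and C35 Tyrobp passed with E2 (0.71, adjusted p = 0.0154) and did not pass with E4 (adjusted p = 0.0714). Apoe, which encodes a lipid-carrying protein ligand of TREM2 made by many cell types, was at 987 ± 152 CPM in vehicle and 996 ± 102 CPM in E2 arteries (0.013, adjusted p = 0.982). Among 8 tested lysosomal and scavenger genes that accompany Cd68, 5 rose with E2, including Gpnmb (0.82, adjusted p = 0.00123), Lyz2 (0.80, adjusted p = 0.0247), Msr1 (0.65, adjusted p = 0.0313) and Ctss (0.61, adjusted p = 0.0134). With E4 against vehicle, Gpnmb (0.50, adjusted p = 0.0178), Lgmn (0.42, adjusted p = 0.0211) and Ctsb (0.27, adjusted p = 0.0326) rose.

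**Figure D4:**
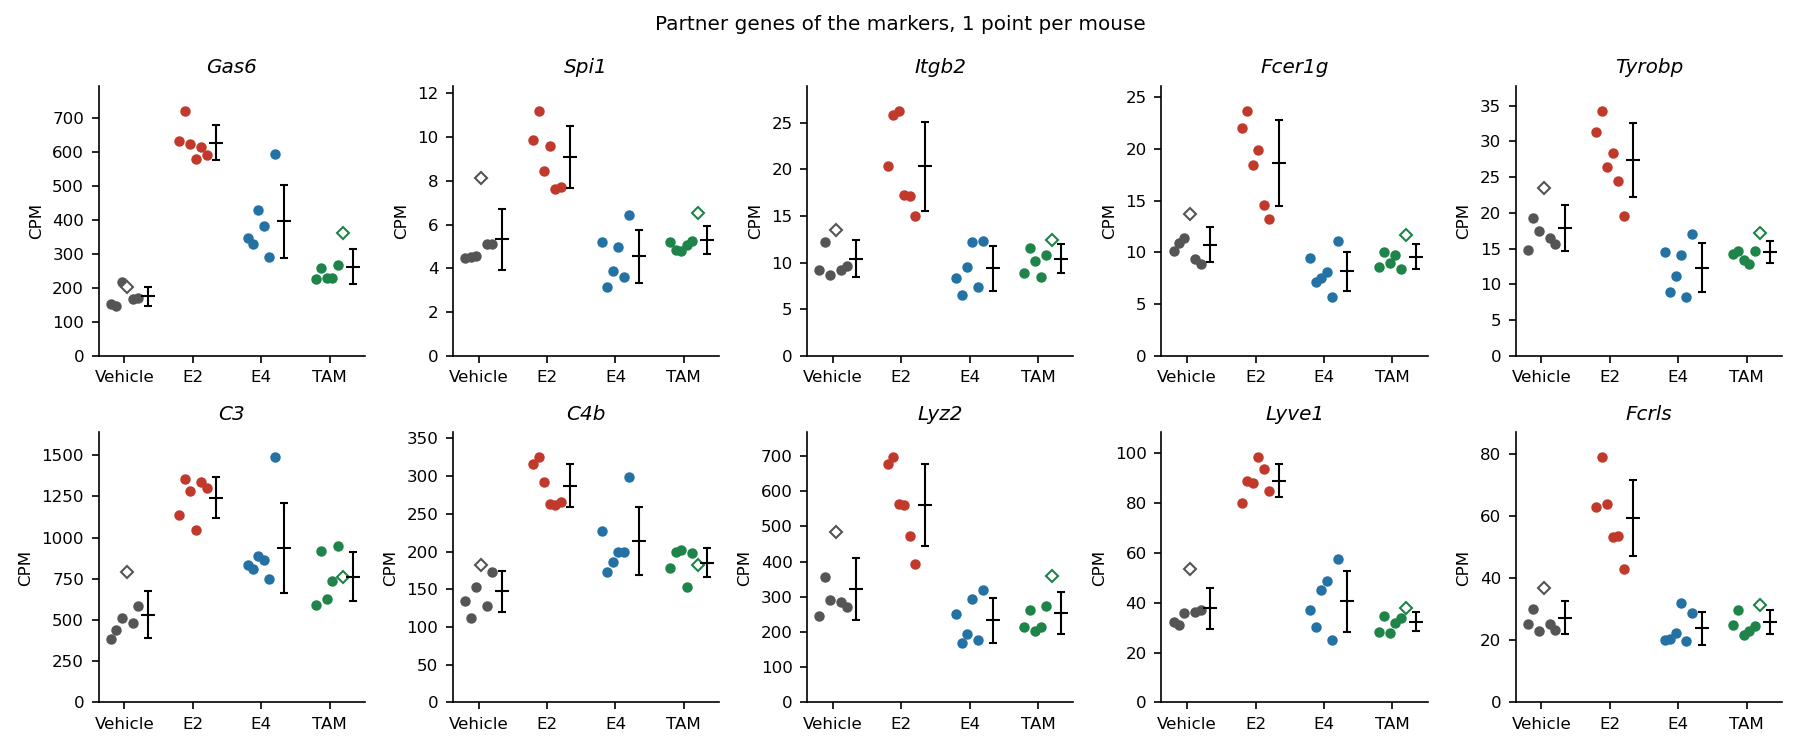
Expression (CPM, linear axis from 0) of 10 genes that act with the markers or mark macrophage subsets, by group, with the mean and SD (n = 6) beside the points. Open diamonds are vehicle C5 and TAM C35. Gas6, C3 and C4b lie higher in both E2 and E4 mice than in most vehicle mice, and the other genes have their highest mean in E2 mice.

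Over the 7 partner lists and the pan-leukocyte list together, 22 of 62 tested genes rose with E2 and 0 fell, 8 rose and 6 fell with E4, and 2 of 63 rose and 0 fell with TAM, each against vehicle. Several of these genes are expressed by cells other than macrophages. The counts read against the 2.65%, 9.65% and 1.3% of all tested genes that rose in those comparisons and the 1.23%, 12% and 0.93% that fell. Without C5 and C35, 28 of 63 rose and 0 fell with E2, 9 rose and 3 fell with E4, and 2 rose and 0 fell with TAM. Without E2 library C9, 17 of 62 rose with E2, and Maf, Fgr, Fermt3, Syk and Msr1 no longer passed (adjusted p from 0.0566 to 0.0848), nor did Il34 for E4 against E2 (adjusted p = 0.0788).

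Markers of macrophage subsets and of other leukocytes were set beside the 10 genes. Of 8 markers of resident perivascular macrophages, 4 rose with E2: Lyve1 from 37.7 ± 8.15 to 89.0 ± 6.52 CPM (log2 fold change 1.24, adjusted p = 1.57e-04), Cd163 (0.89, adjusted p = 0.00474), F13a1 (0.84, adjusted p = 0.0152) and Folr2 (0.78, adjusted p = 0.0390). With E4, 2 fell, Pf4 (-0.57, adjusted p = 0.0418) and Mrc1 (-0.55, adjusted p = 0.0338). Fcrls, listed among 5 microglia markers, rose with E2 from 27.3 ± 5.33 to 59.2 ± 12.3 CPM (1.12, adjusted p = 2.29e-04), the only one of the 5 that did, while Sall1, the defining factor of microglia, was at 0 to 0.761 CPM in all libraries. The monocyte receptor gene Ccr2 rose with E2 (0.83, adjusted p = 0.00576) and was lower with E4 (-0.52, adjusted p = 0.0337), 1 of 5 monocyte markers rising with E2. The monocyte marker Plac8 was also lower with E4 (-0.69, adjusted p = 0.0342). Of 10 genes listed as pan-leukocyte 4 rose with E2: Ncf4 (0.93, adjusted p = 0.00164), Laptm5 (0.92, adjusted p = 0.00129), Ncf1 (0.80, adjusted p = 0.00200) and Cybb (0.64, adjusted p = 0.0188). Ncf4, Ncf1 and Cybb encode parts of the phagocyte oxidase and do not mark all leukocytes. Ptprc, Coro1a and Cd53 of the same list did not pass with E2 (adjusted p = 0.288, 0.313 and 0.0802). With E4 3 of the 10 fell, Ptprc (-0.93, adjusted p = 0.0387), Aif1 (-0.64, adjusted p = 0.0266) and Ncf4 (-0.50, adjusted p = 0.0404). Over all tested genes, 12% fell with E4. Without C5 and C35, 7 perivascular macrophage markers and 7 genes of the pan-leukocyte list rose with E2, Cd53 among them (adjusted p = 0.0492). In that fit Pf4, Mrc1, Ccr2, Plac8, Ptprc and Ncf4 no longer passed with E4 (adjusted p from 0.0554 to 0.0968). Without E2 C9 the adjusted p-value of Folr2 with E2 was 0.0778.

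No gene of the remaining leukocyte lists passed the test with E2. With E2 against vehicle 0 of 7 neutrophil, 0 of 6 dendritic cell, 0 of 6 mast cell, 0 of 7 B cell and 0 of 8 T cell markers tested passed. The summed level of the neutrophil markers was 1.44 to 22.0 CPM in vehicle and 5.50 to 64.9 CPM in E2 arteries, and the defining marker Ly6g did not pass the filter on low counts. The summed T cell markers were 7.63 to 47.6 CPM in vehicle and 4.88 to 411 CPM in E2 arteries, the highest being C9. With E4 against vehicle 6 of 7 B cell, 5 of 6 mast cell and 3 of 6 dendritic cell markers were lower, against 12% of all tested genes. Without C5 and C35 the mast cell count was 4, and with E2 1 neutrophil marker (Elane, log2 fold change 1.25, adjusted p = 0.00611) was higher and 1 dendritic cell marker (Clec9a, -0.52, adjusted p = 0.0455) lower. Without E2 C9 in the fit, 8 of 8 T cell markers were lower in E4 than in vehicle arteries, against 0 of 8 with it. The part of these cell types in the values of the 10 genes was not tested.

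Markers of the wall and of its surroundings were counted in the same way. Of 7 smooth muscle markers 0 passed with E2 against vehicle, of 6 endothelial markers 1 (Vwf, higher), of 7 fibroblast markers 0, of 10 sympathetic neuron markers 0 and of 6 Schwann cell markers 0, or 1 (Fabp7, lower, adjusted p = 0.0399) without C5 and C35. Of 6 adipocyte markers 1 was lower (Retn), of 4 tested thyroid and parathyroid markers 1 was higher (Tshr), and of 6 skeletal muscle markers 0 passed. Haemoglobin and Alas2, marking red blood cells, gave 0 of 5 with E2 and were lower in TAM arteries in 5 of 5, or in 3 of 5 without C5 and C35. With E4 against vehicle 5 of 7 fibroblast markers were lower, led by Pi16 (-0.68, adjusted p = 0.0314) and Lum (-0.65, adjusted p = 0.00577), as were 2 of 7 smooth muscle markers (Tagln and Smtn), the endothelial marker Emcn and the adipocyte markers Lep and Retn, while Vwf (1.27, adjusted p = 3.08e-04) and Tshr were higher. When C5 and C35 were left out the lower fibroblast markers were 4 and the smooth muscle markers 0, and 4 of 10 sympathetic neuron markers were higher. Within the vehicle group, C5 was at once the highest for the mean of the 10 genes (4.79 log2 CPM against 4.23 to 4.50) and the lowest for neuron markers. TAM library C35, also low in neuron markers, had the highest mean of its group (4.53 against 4.26 to 4.48). E2 libraries had means of 5.0 to 5.39 at neuron marker levels of 6.80 to 8.22, C8 and C9 being below the 7.16 to 8.15 of the other vehicle libraries. With the mean of the neuron markers as a covariate, 8 genes rose with E2, 5 of them past the fold threshold. The part of the dissected tissue in the values of C5 was not tested.

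Other marker lists also moved in the comparisons with E2 in which 8 of the 10 genes were lower. For E4 against E2, 32 of the 62 tested partner and pan-leukocyte genes were lower and 1 was higher. Perivascular macrophage markers were lower too, led by F13a1 (-1.30, adjusted p = 7.15e-04) and Folr2 (-1.21, adjusted p = 0.00205). Of these markers 7 of 8 were lower without E2 C9 and 8 of 8 without C5 and C35. Of the microglia markers 2 of 5 and 3 of 5 were lower in these fits. For E4 against E2, 7 of 8 T cell markers were lower, from -2.95 (Cd3g) to -4.81 (Cd8a) on the log2 scale. This rested on E2 C9, without which 0 of 8 passed, while 8 of the 10 macrophage markers were lower without it as well. The fibroblast markers Pdgfra (-0.72, adjusted p = 0.00737), Dpt, Lum and Dcn were lower, 4 of 7, as were 3 of 6 mast cell, 2 of 6 dendritic cell, 2 of 5 monocyte and 1 of 7 neutrophil markers, against 7.95% of all tested genes. Without C9 these counts were 3, 1, 1, 2 and 0, and when C5 and C35 were left out 5, 4, 2, 3 and 4. Summed fibroblast markers were at 4590 to 6852 CPM in E2 and 3040 to 4991 CPM in E4 arteries, and the groups overlapped. The B cell, smooth muscle, endothelial and sympathetic neuron lists had 0 passing in this comparison, but 7 of 10 neuron markers were higher in E4 without C5 and C35.

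For TAM against E2, 5 of 5 red blood cell genes were lower, among them Hbb-bs (-2.07, adjusted p = 0.00256) and Alas2 (-2.04, adjusted p = 0.00347). Their summed level was 4259 to 19960 CPM in E2 and 1899 to 5028 CPM in TAM arteries. Of the fibroblast markers, Col1a1 (1.05, adjusted p = 2.51e-04) and Col1a2 (0.85, adjusted p = 0.00131) were higher and Dpt was lower, and of the monocyte markers Ccr2 and Chil3 were lower. Of the T cell, B cell, mast cell and neutrophil markers 0 passed. Among the 63 tested partner and pan-leukocyte genes 25 were lower and 1 was higher, where 4.48% of all tested genes were lower. Perivascular macrophage markers were also lower, led by Lyve1 (-1.46, adjusted p = 1.98e-06) and F13a1 (-1.36, adjusted p = 2.01e-05). The part of these cell types in the values of the 10 genes was not tested in either comparison.

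**Figure D5:**
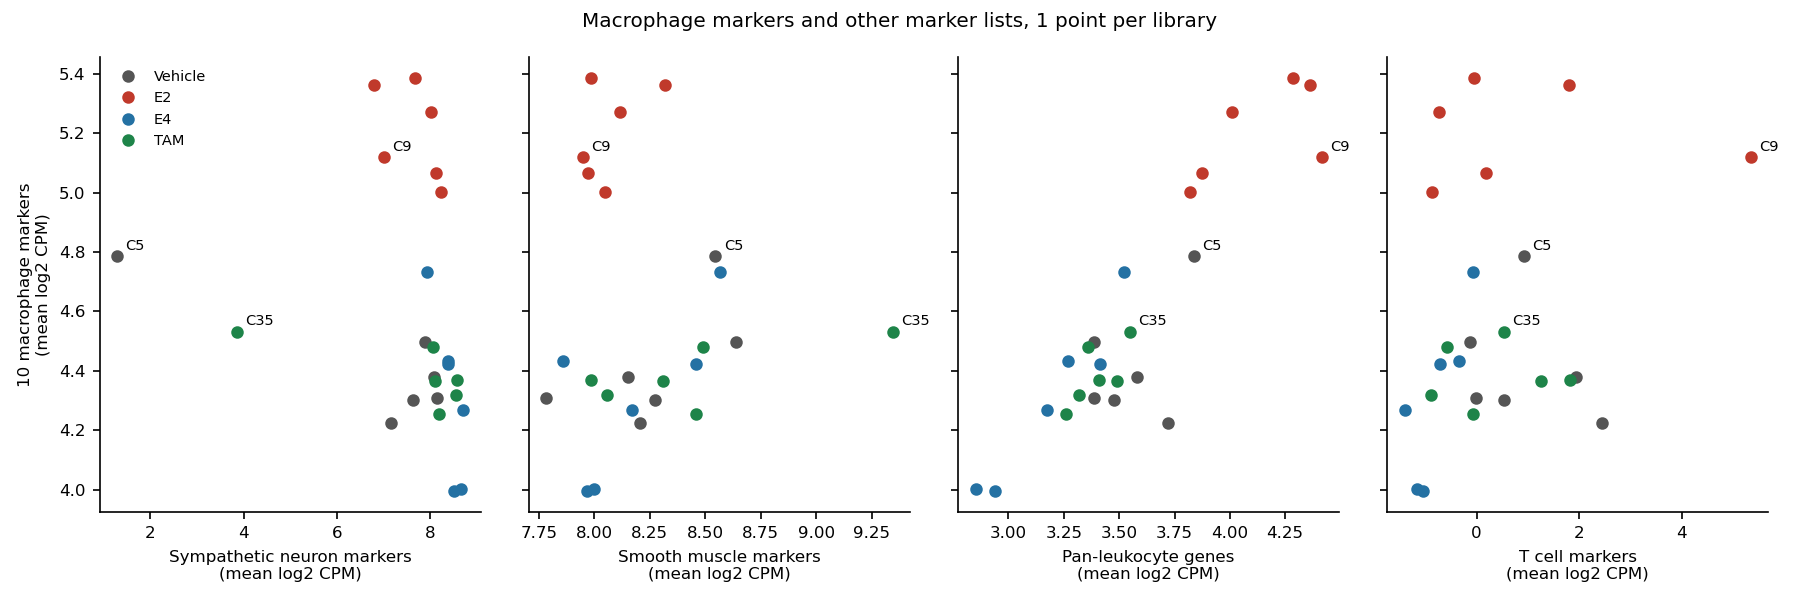
Mean log2 CPM of the 10 macrophage markers (vertical axis) against the mean log2 CPM of 4 other marker lists (horizontal axes) in 24 libraries, coloured by group. The 6 E2 libraries (5.0 to 5.39) lie above all others, and vehicle C5, TAM C35 and E2 C9 are labelled.

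Ranking 14563 protein-coding genes with a mean of at least 1 CPM by Pearson's r with the mean log2 CPM of the 10 markers over 24 libraries gave, in order, Nfam1 (0.970), Alox5ap (0.968), Spi1 (0.960), Lrrc25 (0.960), Cfp (0.959), Clec4a3 (0.958), Clec4a1 (0.957), C3ar1 (0.957), Ptafr (0.956) and Mgl2 (0.956). These correlations are a description, since the libraries share groups, dissection and scaling. Spearman's rho for the same genes was between 0.828 (Cfp) and 0.920 (Lrrc25). Mgl2, a lectin gene of macrophages and dendritic cells, had group means of 31.7, 104, 37.4 and 38.1 CPM in vehicle, E2, E4 and TAM arteries, and Ptafr, the receptor for platelet-activating factor, 13.4, 34.8, 12.4 and 11.2 CPM. Without C5 and C35, 7 of the 10 stayed among the highest 10, with C3ar1 first. After each group's mean was removed, 4 stayed, with Lrrc25 (r = 0.921), Spi1 (0.912) and Mgl2 (0.907) among the highest.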

How the data were processed

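Total RNA of uninjured carotid arteries was sequenced from polyA-selected, strand-marking libraries. The authors trimmed reads with Trim Galore and, per the labels, used bcl2fastq 2.17, Bowtie2 and featureCounts with mm10/GRCm38; the strand setting is not given in the sources used here. They deposited estimated counts per gene without normalization, 1 table per library and 55421 genes (55240 of them named in GENCODE M21). Values with decimals (8.87% to 9.80% per library) were rounded to whole numbers.

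Counts were tested with edgeR 4.0.16 (quasi-likelihood, TMM, default filter, Benjamini-Hochberg adjustment over all tested genes) in R 4.3.3: vehicle, E2 and E4 in a fit of 18 libraries (24669 genes), TAM in a fit of 24 (25056 genes). Standard errors came from the F statistic, and 95% intervals from the fit's degrees of freedom. Calls used an adjusted p-value under 0.05, alone or with an absolute log2 fold change over 1. On simulated counts for E2 against vehicle (24430 genes, 200 changed), 93% of genes changed by a log2 of 1 and 100% by a log2 of 2 were recovered, and 12 unchanged genes were called. The simulated spread followed the trend over genes, no library stood apart, and changed genes had a mean of at least 1 CPM. Recovery in the real data may therefore be lower. CPM used TMM over 24 libraries, and log2 CPM a prior count of 1.

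Members and gene lists were chosen with earlier results of these data known. From each list, up to 4 genes with the largest change past the adjusted p threshold were eligible for naming in each comparison, along with the 10 genes most like the members; genes named without passing were chosen after their values were seen. Promoters came from RefSeq (GRCm38.p6). Alternatives included DESeq2 1.42.0, other scalings and filters, leaving out libraries, number series and a neuron covariate. Figures used matplotlib. Counting error alone does not cover PCR duplicates, as the reads carry no molecular identifiers. The result of 1 gene of the partner lists is not reported here.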

Additional observations from a re-analysis of the deposited data

Results flagged for a closer look

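Each of 144 groups of 6 libraries (10 genes and 26 marker lists in 4 groups) was examined for a single library whose gap to the nearest of the others was a larger share of the group's range than Dixon's 95% critical value, and 15 were found. Chance gives about 1 in 20 groups, or 7.2 here, and the lists share genes and libraries.

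Vehicle C5 accounted for 5 of the 10 genes: Adgre1 at 27.3 CPM (others 19.1 to 21.4), Itgam at 14.3 (9.25 to 10.2), C1qa at 119 (66.0 to 81.7), C1qb at 96.7 (55.0 to 68.7) and C1qc at 94.4 (43.4 to 61.2). The same library was set apart for the lysosomal list (mean log2 CPM 7.15, others 6.75 to 6.88), the perivascular macrophage markers (5.91, others 5.0 to 5.26), the dendritic cell markers, where it was lowest (2.00, others 2.19 to 2.29), and the sympathetic neuron markers (1.29, others 7.16 to 8.15). The level of Mertk in C5 was 35.7 CPM, near the middle of its group, so the high values did not extend to all 10 genes.

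The integrin partner list was high in vehicle C3 (3.08, others 2.60 to 2.73). TAM C35 was low for neuron markers (3.86, others 8.06 to 8.58) and high for smooth muscle markers (9.34, others 7.99 to 8.49). E4 C39 was high for endothelial markers (6.57, others 5.99 to 6.19). Skeletal muscle markers were high in vehicle C2 (3.89, others -0.66 to 0.67) and in E4 C20 (3.59, others -0.43 to 0.32). What set these libraries apart was not tested.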

How the results depend on the processing

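Of the 10 genes, 8 rose with E2 against vehicle in all alternatives but the single number series, where 2 passed in the first and 2 in the second. The number past both thresholds was 2 with RLE scaling, the number series as a covariate, the second series alone, 24 libraries in the fit or DESeq2, and 5 with the neuron covariate or without C5 and C35. Leaving out 1 library at a time gave 8 to 8 genes higher, 1 to 5 past both thresholds (5 without vehicle C5) and a median log2 fold change of 0.80 to 0.99. For E4 against vehicle the neuron covariate gave 1 gene higher (Itgam, log2 fold change 0.41, adjusted p = 0.0400) and a median of 0.080, and the second series a median of 0.14; with 1 library left out the median was -0.26 to 0.021 and 0 genes passed. For E4 against E2 the first series had a median of -1.27, and the second 0 genes lower, 0 past both thresholds and a median of -0.77; with 1 library left out 8 to 9 were lower, 4 to 7 past both thresholds, the median was -1.15 to -0.97, and the ninth gene was Trem2 (adjusted p = 0.0493 without vehicle C5 and 0.0287 without E4 C39). For TAM against E2 the first series gave 6 past both thresholds, and the second 1 lower and 1 past both; with 1 library left out 8 to 8 were lower, 2 to 6 past both (5 without E2 C27, 6 without E2 C29) and the median was -1.02 to -0.91. TAM against vehicle gave a median of 0.14 in the second series and -0.13 to 0.073 with 1 library left out, and TAM against E4 -0.029 to 0.18, with 0 genes in both. Uncalled genes with values near 0 changed sign under several alternatives, including single libraries left out; those whose value also moved by at least 2 standard errors were C1qa for E4 against vehicle (0.22) and Cd68 for TAM against vehicle (0.27), both in the second series, and Mertk for TAM against E2 (-0.003) in the first. The single series hold fewer libraries; otherwise the cause was not tested. Among the partner and pan-leukocyte genes, leaving out C5 and C35 (also chosen after seeing the data) moved the number lower with E4 against vehicle from 6 to 3, the number higher in E4 against E2 from 1 to 3 and the number lower in TAM against E4 from 0 to 1. Without E2 C9 (likewise chosen) these genes gave 17 higher and 0 lower for E2 against vehicle, 7 and 8 for E4 against vehicle, 0 and 27 for E4 against E2, 0 and 23 for TAM against E2, 2 and 0 for TAM against vehicle and 0 and 0 for TAM against E4. An interaction of treatment and number series, chosen after seeing the data, was tested for E2, E4 and TAM against vehicle and for E4 against E2. It gave no adjusted p under 0.492 for any of the 10 genes. That value was Adgre1 for E4 against E2 (unadjusted p = 0.0306). For TAM against E2 and TAM against E4 the interaction was not tested. Ranked within groups, 4 of the 10 most similar genes stayed. No paired analysis was possible because each library carries its own animal number.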
